A study of Homo sapiens with 8 samples.

Results

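The 6 genes described here are DEFA6, PRSS2, FABP1, MUC15, HSD17B2 and VIL1, out of 19775 that an expression array measured with at least 1 unshared probe set. They were chosen by name from earlier results of the same arrays, 5 for being among the largest rises from undifferentiated human embryonic stem cells to embryoid bodies, and VIL1 as a marker of gut epithelium. The cells were labelled H9, an established stem cell line grown in mTeSR medium, and were either undifferentiated or in embryoid bodies, the floating aggregates in which such cells begin to differentiate. There were 4 groups of 2 arrays (replicates A and B): embryoid bodies with 20 mM ethanol for 24 h, embryoid bodies with 0 mM, undifferentiated cells with 20 mM ethanol for 24 h and undifferentiated cells with 0 mM. All groups gave total RNA of 1 named line, and the labels do not give the age of the embryoid bodies or say whether replicates were separate cultures, so p-values measure the spread between these arrays only.

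The 6 genes serve digestion, absorption and the defence of epithelia. Paneth cells at the base of the small intestinal crypts secrete the alpha-defensin DEFA6, which forms nets that trap bacteria, and also make trypsin, which cuts alpha-defensin precursors into active peptides. PRSS2 encodes anionic trypsinogen, a digestive protease made mainly by the exocrine pancreas. FABP1 encodes the fatty acid binding protein of liver and intestinal absorptive cells. VIL1 encodes villin, which bundles the actin cores of brush border microvilli in intestine and kidney. MUC15 encodes a mucin that spans the cell membrane, and HSD17B2 an enzyme of placenta, liver and gut that inactivates estradiol and testosterone by oxidation. Several of them are therefore also expressed by liver, kidney or placenta, and early endoderm and yolk sac share much of the liver program.

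In the human genome (build GRCh38.p14) MUC15 lies on chromosome 11 from base 26559032 to 26572263. HSD17B2 is on chromosome 16 from 82035253 to 82098534, and VIL1 on chromosome 2 from 218419123 to 218453295. FABP1 is also on chromosome 2, from 88122982 to 88128062, and PRSS2 is on chromosome 7 from 142770970 to 142774560. All are protein-coding. For 2 of the 6, FABP1 and PRSS2, the 250 bases before the annotated start were in the sequence table used and are shown, since regulators of gut and liver genes are known to bind near such starts. The sequences are from RefSeq, build GRCh38.p14, and run from the distal end to the base before the start. They cover chr2:88128063-88128312 on the minus strand and chr7:142770720-142770969 on the plus strand, and capitals mark matches to 5 short motifs.
FABP1: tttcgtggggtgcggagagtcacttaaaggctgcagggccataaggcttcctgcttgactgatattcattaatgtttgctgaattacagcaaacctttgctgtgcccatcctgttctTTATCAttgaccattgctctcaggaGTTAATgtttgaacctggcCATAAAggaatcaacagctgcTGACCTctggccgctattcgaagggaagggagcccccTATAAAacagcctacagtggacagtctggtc
PRSS2: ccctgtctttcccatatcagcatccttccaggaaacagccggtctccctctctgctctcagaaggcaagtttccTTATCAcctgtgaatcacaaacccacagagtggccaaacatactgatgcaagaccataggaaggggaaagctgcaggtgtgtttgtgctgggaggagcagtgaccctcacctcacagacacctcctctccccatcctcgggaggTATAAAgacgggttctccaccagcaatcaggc

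The motifs were the TATA box (TATAAA), the core of CDX sites (CATAAA), a partial site of HNF1 (GTTAAT), a partial site of nuclear receptors such as HNF4 (TGACCT) and a GATA site (TTATCA). They were chosen after the sequences had been read and were searched on both strands, with no overlap between matches. The FABP1 window held all 5, each once and on the strand shown, with the TATA box 31 to 26 bases before the start, TGACCT from 68, CATAAA from 89, GTTAAT from 108 and TTATCA from 133. The PRSS2 window held TATAAA 32 to 27 bases before the start and TTATCA from 176. Over 35116 windows of the same length, TATAAA was found in 10.7%, CATAAA in 9.64%, GTTAAT in 6.23%, TGACCT in 12.1% and TTATCA in 6.66%. A match describes the letters and is not a known site, and a missing match says only that these letters are not in the window.

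Values are array signals, scaled so that the mean signal without the most extreme probe sets was the same on all 8 arrays. The median signal of an array was 69.2 to 79.4 in undifferentiated cells and 85.1 to 102 in embryoid bodies, and a signal far under it is imprecise. Of the 6 genes, 5 crossed the filter for testing, which asks for 2 arrays above their own median, through embryoid body arrays alone, so no count over the tested genes supports a difference between the stages. Transcripts that tell lines apart disagreed with the named line on 4 of the 8 arrays, which were the whole of 1 stage. Stage and line therefore cannot be told apart in any comparison of embryoid bodies with undifferentiated cells below, while ethanol was compared within a stage. Of the measured pluripotency genes, 11 of 11 lay above the array median in every group, so this count cannot check the undifferentiated label. Their summed signals were 81914 to 96604 in embryoid bodies and 121642 to 130115 in undifferentiated cells, a difference that shares the limit of stage and line.

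The label of these genes as intestinal was only partly borne out by other markers. Of the 29 other genes listed for the enterocyte brush border, 10 lay above the median on both arrays of embryoid bodies with ethanol and 8 without it, against 8 of undifferentiated cells with ethanol and 9 without it. Of 11 other Paneth and antimicrobial genes, 4 lay above the median on both arrays of embryoid bodies with ethanol and 2 without it, against 2 of undifferentiated cells with ethanol and 2 without it. Of 22 other mucin and goblet cell genes the counts were 6 and 8 in embryoid bodies with and without ethanol, against 5 and 6 in undifferentiated cells with and without it. Summed signals at 0 mM were 1393 to 1427 in embryoid bodies against 781 to 1027 in undifferentiated cells for the Paneth list. For the mucin list they were 2479 to 2631 against 1527 to 1727. For the brush border list they were 5162 to 5178 against 5284 to 5360 at 0 mM, but 6121 to 6238 against 5669 to 5690 at 20 mM. Some listed genes were bright in embryoid bodies, such as DPP4 and DEFA5 described below, while several defining markers, picked after their values were seen, were dim. The intestinal master regulator CDX2 had signals of 40.7 and 57.5 in embryoid bodies with ethanol and 15.1 and 17.4 without it, against 4.17 to 8.91 in undifferentiated cells with ethanol and 3.24 to 28.2 without it. The sucrase-isomaltase gene SI did not exceed 6.46 on any array, the goblet cell mucin MUC2 did not exceed 51.3, and lysozyme (LYZ) of Paneth cells did not exceed 51.3. All 3 stayed under the median of each array. Other genes of their lists lay above it, so these 3 picked markers settle no cell type. The 6 genes are called by their names here and not by a cell type.

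DEFA6, on chromosome 8 from 6924697 to 6926076 of the same build, was high in all embryoid bodies and near the bottom of the signal range in undifferentiated cells. Its signals were 933 and 1096 in embryoid bodies with ethanol and 1380.4 and 1445 without it, against 10.7 and 33.1 in undifferentiated cells with ethanol and 11.7 and 6.17 without it. The lowest embryoid body array was 28.2 times the highest undifferentiated array, so the stages did not overlap. The log2 difference between stages was 7.37 at 0 mM and 5.75 at 20 mM. It was 5.85 and 4.83 when 16 was added to each signal before the logarithm, a step that damps very low values.

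PRSS2 was high in embryoid bodies and hardly varied between their arrays. Signals were 1778 and 1738 in embryoid bodies with ethanol and 1862 and 1778 without it, against 70.8 and 14.5 in undifferentiated cells with ethanol and 10.7 and 12.6 without it. One undifferentiated array, replicate A with ethanol, came close to its array median, and the lowest embryoid body array was still 24.5 times as high. The log2 difference between stages was 7.29 at 0 mM and 5.78 at 20 mM, and without that array it was 6.93 at 20 mM. Trypsinogen genes are near-identical copies, and both PRSS2 probe sets are of a kind that can also bind related transcripts, so the signal cannot be assigned to PRSS2 with certainty. A second PRSS2 probe set, with a mean log2 signal of 7.46 against 7.54 for the one used, gave smaller differences of 3.67 at 0 mM and 3.36 at 20 mM. A probe set named for both PRSS2 and its paralog PRSS1 gave 6.81 and 5.53. PRSS3, the mesotrypsinogen gene, was also higher in embryoid bodies, with log2 differences of 2.29 ± 0.22 at 0 mM and 2.14 ± 0.22 at 20 mM (standard error, adjusted p = 0.000621 and 0.00065, limma).

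FABP1 was moderate in embryoid bodies and almost without signal in undifferentiated cells. Signals were 263 and 245 in embryoid bodies with ethanol and 186 and 219 without it, against 3.72 and 17.8 in undifferentiated cells with ethanol and 2.24 and 1.78 without it. The embryoid body values were 2.19 to 2.57 times the array medians, and the stages stood 10.5-fold apart at their closest arrays. Differences on the log2 scale were 6.66 at 0 mM and 4.97 at 20 mM, or 3.60 and 3.39 with 16 added. The 2 FABP1 probe sets disagreed in size. The second stayed under the array median on all 8 arrays, with signals of 38.0 to 66.1 in embryoid bodies and 5.01 to 27.5 in undifferentiated cells, and its log2 differences were 1.68 and 2.18.

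MUC15 was moderate in embryoid bodies and far under the array median in undifferentiated cells. Its signals were 316 and 302 in embryoid bodies with ethanol and 239.9 and 263 without it, against 4.17 and 3.80 in undifferentiated cells with ethanol and 1.70 and 3.89 without it. The lowest embryoid body array was 57.5 times the highest undifferentiated array. Log2 differences were 6.61 at 0 mM and 6.28 at 20 mM, or 3.83 and 4.02 with 16 added, and the dimmer second probe set gave 6.73 and 5.15. Both MUC15 probe sets separated the stages on every array.

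HSD17B2 lay close to the array median even in embryoid bodies. Signals were 141 and 132 in embryoid bodies with ethanol and 102 and 81.3 without it, against 12.0 and 1.45 in undifferentiated cells with ethanol and 1.32 and 0.891 without it. Embryoid body values were 0.955 to 1.38 times the array medians. The log2 difference of 6.39 at 0 mM shrank to 2.65 with 16 added, and that of 5.03 at 20 mM to 2.79. The size of the HSD17B2 fold thus depended on how signals near 1 were treated, while its arrays stayed apart by 6.76-fold at the closest.

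On its main probe set VIL1 differed from the other genes in being above the median on all 8 arrays. Its signals were 603 and 661 in embryoid bodies with ethanol and 603 and 549.5 without it, against 178 and 85.1 in undifferentiated cells with ethanol and 126 and 145 without it. Embryoid bodies were 5.13-fold higher at 20 mM and 4.27-fold higher at 0 mM, with log2 differences of 2.36 and 2.09. The differences changed little, to 2.21 and 1.97, with 16 added. The other 3 VIL1 probe sets gave log2 differences of 1.56 to 2.74 at 0 mM and 1.64 to 2.39 at 20 mM. Each of these 3 lay above the median on only 5 or 6 of the 8 arrays.

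**Figure D1:**
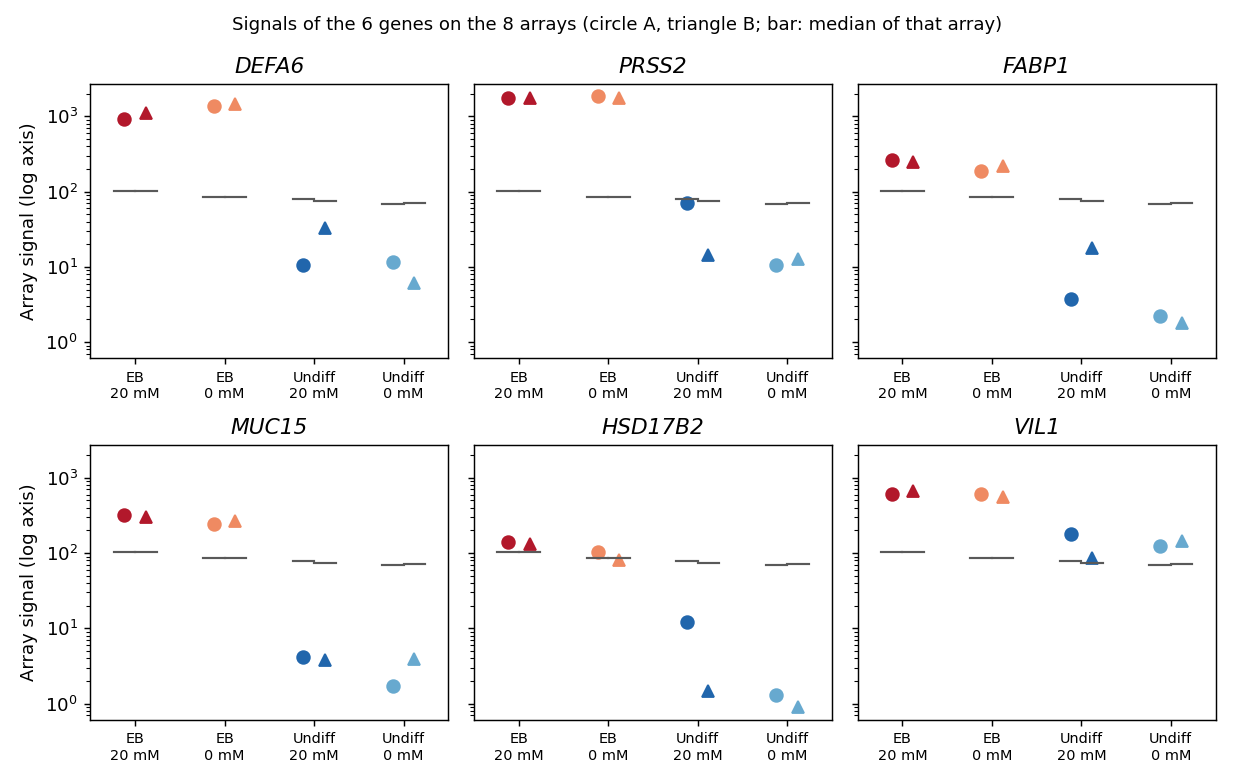
Array signal on a log axis for each of the 6 genes on its main probe set, with replicates A (circles) and B (triangles) in the 4 groups (EB, embryoid bodies; Undiff, undifferentiated cells); short bars give the median of each array. In each panel the 4 embryoid body arrays lie above the 4 undifferentiated arrays, and only VIL1 exceeds the median on all 8.

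Across the 6 genes the 4 embryoid body arrays exceeded the 4 undifferentiated arrays on all 13 probe sets, 12 of their own and 1 shared with PRSS1. Among all 14072 tested genes, both embryoid body arrays exceeded both undifferentiated arrays in 40.3% at 0 mM and in 39.6% at 20 mM, and both lay below in 38.1% and 37.6%. These shares compare 2 arrays with 2 at each dose on 1 probe set per gene, which is easier to meet than 4 against 4. By the adjusted p, 52.8% of all tested genes were called at 0 mM and 56.3% at 20 mM. Nothing is read from the members' count, since they were picked for this difference. The size of the log2 difference at 20 mM leaned on single arrays of undifferentiated cells with ethanol. Leaving out replicate B or A of that group gave 6.56 or 4.93 for DEFA6, 4.63 or 6.93 for PRSS2, 6.10 or 3.84 for FABP1, 3.505 or 6.56 for HSD17B2 and 1.83 or 2.89 for VIL1. For MUC15 at 0 mM, leaving out replicate B or A of undifferentiated cells without ethanol gave 7.21 or 6.01. In bulk RNA such a difference can come from more cells of a type or from more RNA per cell, which cannot be told apart.

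**Figure D2:**
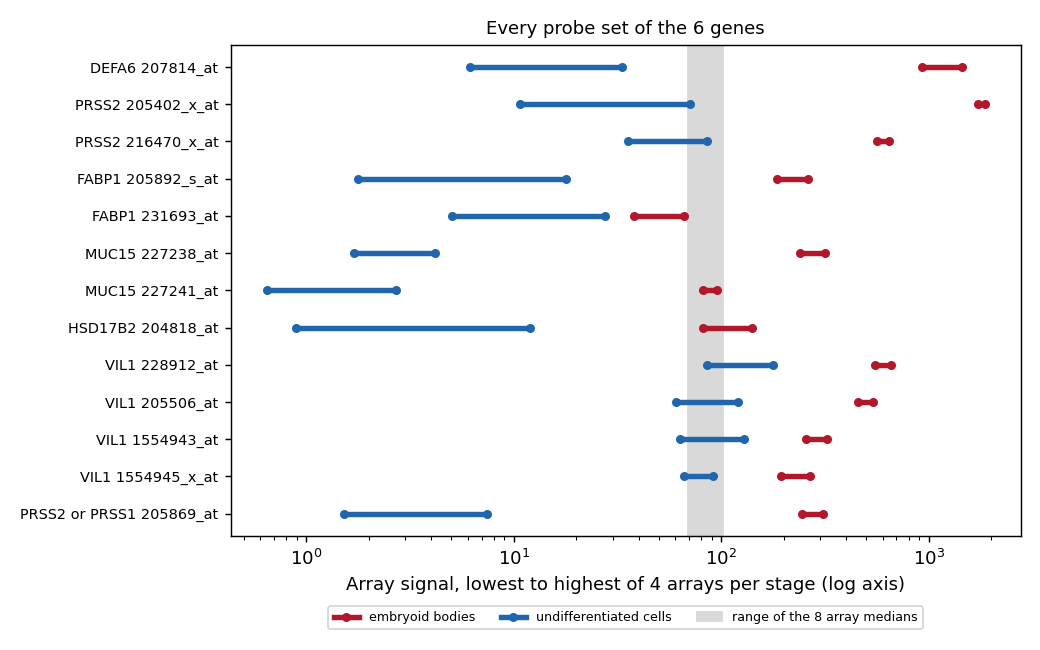
Lowest to highest signal over 4 arrays per stage (log axis) for each probe set of the 6 genes and for the set shared by PRSS2 and PRSS1; the grey band spans the 8 array medians. The stages are apart on all 13 sets, but the second FABP1 set lies under the band at every array and stands only 1.38-fold apart.

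Other genes were compared by pattern over the 8 arrays, as the root mean square difference of log2 signals after each gene was centred on its own mean. This is a description, since the 4 groups and a large stage difference are common to all of them. The nearest patterns to MUC15 were GASK1B (0.40) and the apolipoprotein gene APOB (0.41), to DEFA6 the matrix protein gene MGP (0.54) and GASK1B (0.58). PRSS2 lay nearest to LINC00261 (0.55) and to HSD17B2 (0.57), and HSD17B2 to DIO3OS (0.49) and PRSS2 (0.57). FABP1 was nearest to the homeobox gene PITX1 (0.50) and to DEFA6 (0.61), and VIL1 to CNTNAP3P2 (0.13) and FBXO6 (0.14). Between the members themselves the distances ran up to 2.34, that of DEFA6 and VIL1.

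None of the 6 genes passed the adjusted threshold for a change with ethanol in embryoid bodies, although the arrays of 4 genes did not overlap. By limma with Benjamini-Hochberg adjustment over 14072 genes, 0 of 6 passed, and 0 of 6 had an unadjusted p under 0.05. Among all tested genes 0.0711% passed, 0.0426% higher and 0.0284% lower, and 22.3% had an unadjusted p under 0.05. DEFA6 was 1.40-fold lower with ethanol (log2 change -0.48 ± 0.56, standard error, adjusted p = 0.652). Both DEFA6 arrays with ethanol lay below both without it, a position shared by 28.1% of all genes. With ethanol, 3 genes had both arrays above those without it, as did 29.4% of all genes. These were FABP1 (0.33 ± 0.68, adjusted p = 0.814), MUC15 (0.30 ± 0.36, adjusted p = 0.666) and HSD17B2 (0.58 ± 0.92, adjusted p = 0.749). PRSS2 (-0.05 ± 0.68) and VIL1 (0.13 ± 0.33) had overlapping arrays, with adjusted p of 0.975 and 0.849. Cyclic loess, another scaling, turned FABP1 to -0.06 and MUC15 to -0.10, and median centring turned VIL1 to -0.13.

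The errors of these changes were larger than the embryoid body arrays show. The fit shares 1 spread over all 8 arrays, and the within-group SD of DEFA6 on the log2 scale was 0.16 and 0.05 in embryoid bodies with and without ethanol, against 1.15 and 0.66 in undifferentiated cells with and without it. When undifferentiated arrays were left out of the fit, the adjusted p of the 6 genes ran from 0.127 (DEFA6) to 0.584 (PRSS2), still without a call. Over all alternatives run, the DEFA6 change lay between -0.75 and -0.37, with adjusted p from 0.127 to 0.835. At 95% confidence the interval for the DEFA6 ratio, ethanol over none, was 0.276 to 1.86, and for VIL1 0.626 to 1.92. Changes of that size are therefore not excluded in either direction.

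In undifferentiated cells the signals of 5 genes were too low for a fold with ethanol to be informative, and no gene passed. Of the 6 genes 0 were called by limma and 1, FABP1, had an unadjusted p under 0.05. Over all tested genes 0.00711% were called and 7.01% had an unadjusted p under 0.05. FABP1 was at 2.03 ± 0.68 (adjusted p = 0.635), HSD17B2 at 1.94 ± 0.92 (adjusted p = 0.759), PRSS2 at 1.46 ± 0.68 (adjusted p = 0.744) and DEFA6 at 1.15 ± 0.56 (adjusted p = 0.767). These values are of the main probe sets, and the second sets gave -0.42 for FABP1, 0.15 for PRSS2 and 1.78 for MUC15. With the mean of its probe sets FABP1 was at 0.81 (adjusted p = 0.925, limma). The arrays of FABP1, PRSS2 and HSD17B2 with ethanol both lay above those without it, as did 15.4% of all genes. In each of these 3 genes 1 of the 2 ethanol arrays was high, replicate B for FABP1 and replicate A for PRSS2 and HSD17B2. Leaving out the low ethanol array gave a call: FABP1 was at 3.16 (adjusted p = 0.0413) without replicate A, and PRSS2 at 2.61 (adjusted p = 0.0224) and HSD17B2 at 3.47 (adjusted p = 0.0404) without replicate B. These calls rest on 1 array each. MUC15 (0.63 ± 0.36, adjusted p = 0.809) and VIL1 (-0.13 ± 0.33, adjusted p = 0.977) had overlapping arrays.

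**Figure D3:**
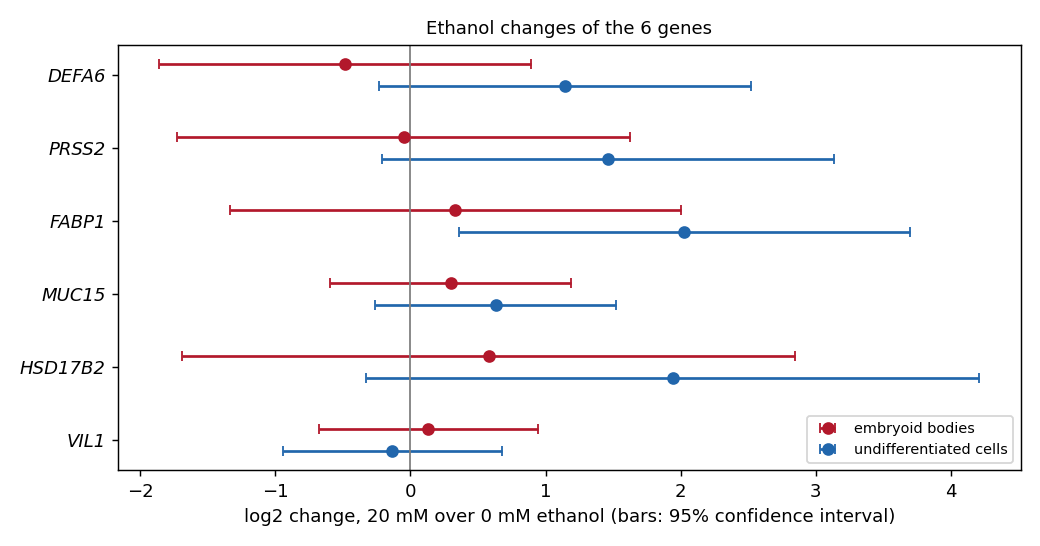
Log2 change with 20 mM over 0 mM ethanol of the 6 genes in embryoid bodies (red) and undifferentiated cells (blue), with 95% confidence intervals from the fit over all 8 arrays. All intervals in embryoid bodies include 0. In undifferentiated cells the FABP1 interval of 0.36 to 3.70 does not, although its adjusted p was 0.635. The second FABP1 probe set, not shown, changed there by -0.42.

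For none of the 6 genes did the ethanol changes of the stages differ beyond the threshold. Subtracting the change of undifferentiated cells from that of embryoid bodies gave -1.63 ± 0.79 for DEFA6 (adjusted p = 0.436), -1.51 ± 0.96 for PRSS2 (adjusted p = 0.544) and -1.69 ± 0.96 for FABP1 (adjusted p = 0.496). For HSD17B2, MUC15 and VIL1 the result was -1.36, -0.33 and 0.27. Of all tested genes, 0% were called in this comparison by limma, and 0 of the 6 had an unadjusted p under 0.05, against 13.0% of all tested genes. Without replicate B of undifferentiated cells with ethanol, PRSS2 was at -2.66 (adjusted p = 0.0431).

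Tested relatives of DEFA6, FABP1, HSD17B2 and MUC15 had smaller stage differences than these genes. Since these genes were picked as among the largest rises, smaller values in relatives were likely beforehand, and nothing is read from them. DEFA5, the other Paneth cell defensin, was higher in embryoid bodies, with log2 differences of 2.31 ± 0.37 at 0 mM (adjusted p = 0.00368, limma) and 1.45 ± 0.37 at 20 mM (adjusted p = 0.0184). Its signals were 138 to 174 in embryoid bodies with ethanol and 162 to 224 without it, against 55.0 to 58.9 in undifferentiated cells with ethanol and 26.3 to 56.2 without it. DEFA5 crossed the filter for testing through embryoid body arrays alone, so these p-values support no difference between the stages. Of 4 other fatty acid binding proteins tested, 1 was higher, 2 were lower and 1 was not called at 0 mM. FABP7 of neural progenitors was at 0.22, a value smaller than the shift of all genes under median centring, which put their median at -0.27 against 0.02. The other called genes were FABP3 of muscle at -2.01 and FABP6, the ileal bile acid binder, at -1.71. FABP2, the intestinal form, was too dim to be tested. Among 9 other tested HSD17B genes, 2 were higher and 5 lower at 0 mM, all between -0.70 (HSD17B7) and 0.50 (HSD17B14). Of 16 tested genes of sex steroid metabolism other than HSD17B2, 6 were higher and 8 lower (median -0.16), with the sulfatase STS at 1.79 and HSD11B2, which inactivates cortisol, at -1.51. Of 4 other mucins tested, MUC1 was higher (0.75), MUC3A (-0.81) and MUC5AC (-1.58) were lower, and MUC12 (-0.37) was not called.

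Genes of gut and endoderm regulation were mostly higher in embryoid bodies. At 0 mM, 28% of all tested genes were called higher and 24.7% lower, and at 20 mM 29.2% and 27.1%. Of 15 tested gut regulators 12 were higher and 1 lower at 0 mM, with a median log2 difference of 1.54 against 0.02 over all genes. They included the intestinal stem cell receptor LGR5 (5.18), GATA6 (4.38), the pioneer factor FOXA2 (3.80) and the endoderm factor SOX17 (3.59). At 20 mM 10 were higher and 1 lower, with a median of 2.21. CDX1, CDX2 and ATOH1 were among the 6 with a probe set that were too dim to be tested. Here too the filter could admit a gene through embryoid bodies alone, and the stage comparison shares the limits of the named line.

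Lists of digestive genes were mixed in direction, and differences between lists were not tested. The filter could again admit a gene through embryoid bodies alone. Of 14 tested lipid genes other than FABP1, 9 were higher and 2 lower at 0 mM (median 0.84), led by APOA1 (6.03), APOB (5.58) and APOA4 (4.70), carriers of lipid in liver, yolk sac and gut. Of 15 brush border genes other than VIL1, 6 were higher and 3 lower at 0 mM (median 0.02). The meprin subunit MEP1A (3.39) and the peptidase DPP4 (3.06) were among the higher ones, and the bundling protein PLS1 was lower (-1.48). Of 7 exocrine pancreas genes other than PRSS2, PRSS3 alone was called at 0 mM, and 6 were not. Among 10 mucin and goblet cell genes other than MUC15, 6 were higher and 2 lower (median 0.70), with the trefoil peptide TFF1 at 4.15 and the chloride channel regulator CLCA1 at 3.19. Of 5 Paneth and antimicrobial genes 2 were higher, DEFA5 and the phospholipase PLA2G2A (0.75). At 20 mM 7 brush border genes were higher and 2 lower (median 0.66), and 2 exocrine pancreas genes were higher. The lipid counts stayed at 9 and 2 (median 1.32). Those of mucin and goblet cell genes were 4 and 1 (median 0.66), and again 2 Paneth and antimicrobial genes were higher.

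Markers of other tissues that express some of the 6 genes also differed between the stages, though trophoblast markers went both ways. All 12 tested liver and yolk sac genes had positive differences at 0 mM, and 11 were called higher (median 4.66), among them the fibrinogen chain FGB (6.33), APOA2 (5.88), the fetal plasma protein AFP (5.22) and TTR (5.03). Of the 14 with a probe set, 3 lay above the median on both undifferentiated arrays at 0 mM, against 11 in embryoid bodies. The filter could thus admit a gene of these lists through embryoid bodies alone, so these counts support no difference between the stages. Summed over 14 liver and yolk sac genes, signals were 41687 to 42858 in embryoid bodies with ethanol and 29742 to 29829 without it, against 684 to 1332 in undifferentiated cells with ethanol and 829.5 to 896 without it. Albumin (ALB), a defining liver gene looked up after its values were seen, was under the array median on all 8 arrays. Of 7 kidney tubule genes 4 were higher, with the endocytic receptors LRP2 at 2.56 and CUBN at 2.54. Of 8 trophoblast genes other than MUC15, 4 were higher, 2 lower and 2 not called, with a median of 0.23. GATA3 at 3.77 and PAPPA at 3.69 were among the higher ones. Summed over 22 trophoblast genes, signals were 10870 to 11437 in embryoid bodies with ethanol and 10764 to 10888 without it, against 5860 to 5942 in undifferentiated cells with ethanol and 5513 to 6134 without it. Counted by genes above the median on both arrays, the order was the reverse. These were 6 and 6 in embryoid bodies with and without ethanol, against 8 and 7 in undifferentiated cells. The part of these tissues in the signals of the 6 genes was not tested.

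**Figure D4:**
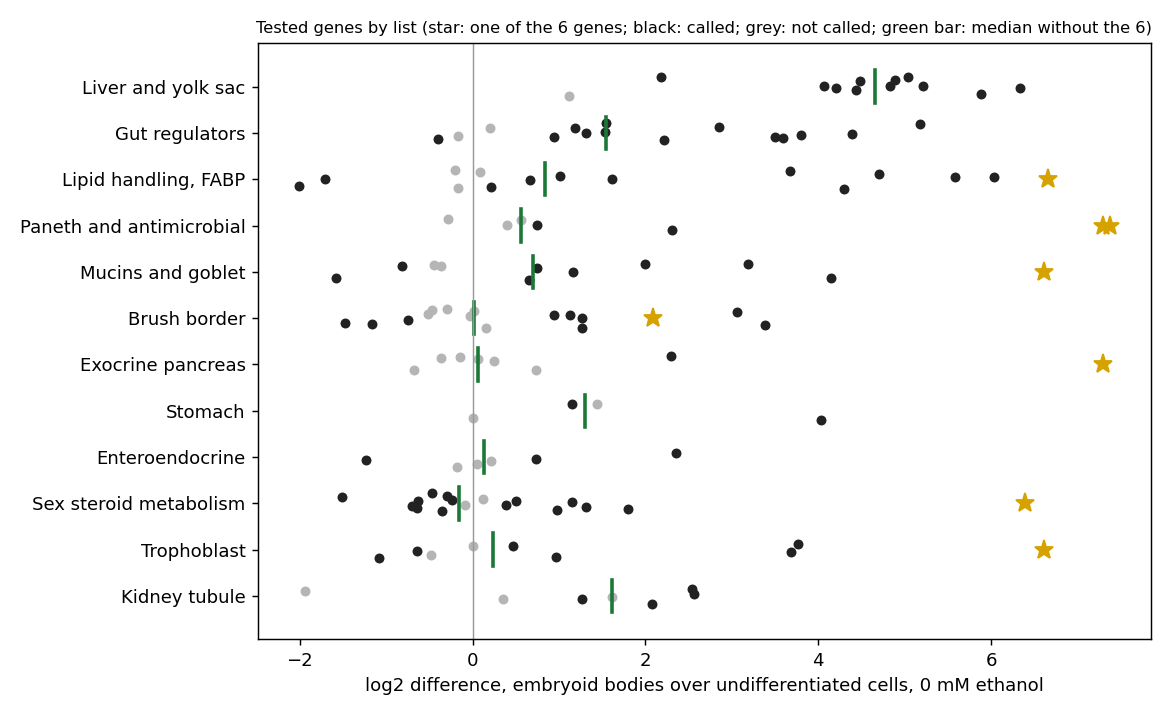
Log2 difference of embryoid bodies over undifferentiated cells at 0 mM for each tested gene (1 point) in 12 gene lists; stars are the 6 genes, black points passed an adjusted p of 0.05, grey did not, and green bars are medians without the 6. The liver and yolk sac median is 4.66 and the brush border median 0.02. At 20 mM, not shown, these medians were 5.45 and 0.66.

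With ethanol in embryoid bodies, single genes of these lists rarely passed over all genes. Among brush border, lipid, Paneth, mucin, pancreatic, steroid and gut regulator genes 0 were called by limma, while an unadjusted p under 0.05 was found for 3 of 15, 3 of 14, 2 of 5, 2 of 10, 1 of 7, 5 of 16 and 3 of 15. Over all tested genes that share was 22.3%, so these counts lie near the background. The brush border list had 11 of 15 positive values and a median of 0.37, against 50.8% positive and a median of 0.02 over all genes. Median centring put the median of all genes at -0.25, so the sign of small changes depends on the scaling. Its smallest p-values belonged to the intestinal cadherin CDH17 (1.30, adjusted p = 0.0623) and the actin bundler ESPN (-0.91, adjusted p = 0.068). The gastric mucin MUC5AC was at 1.83 (adjusted p = 0.0777), from signals with a mean of 89.1 with ethanol and 25.1 without it, both under the array medians of 102 and 85.1. The plasma protein gene AHSG was the called gene among 12 of liver and yolk sac, of which all 12 were positive (median 0.78). Over all tested genes 10, or 0.0711%, were called. With a replicate block 0 were, so the AHSG call was not kept there.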

How the data were processed

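Per the labels, biotin-labelled total RNA was measured on 8 arrays, with RMA named in the submitters' processing notes. The deposited values are log10 signals by their own evidence: they run below 0, and their antilogs share a trimmed mean (2% off each end), unlike RMA. The design had assumed no base. Values were converted to log2 with no further scaling. Of 54675 probe sets 41097 named 1 gene, and each gene took its probe set with the highest mean. A gene was tested when 2 arrays lay above their own median. Contrasts of 4 group means over all 8 arrays were fitted with limma 3.58.1 in R 4.3.3, with 4 residual degrees of freedom, and an adjusted p under 0.05 was a call. The number of arrays limits the precision. The fit was tested on simulated data. Named genes are the 6, listed relatives, up to 4 per list by stage difference, up to 3 by ethanol p and 2 by pattern. Outside these rules, CDX2, SI, MUC2, LYZ and ALB were picked after their values were seen. CDX1, ATOH1 and FABP2 were named as too dim to be tested. The members and lists were chosen with earlier results of these data known. Alternatives varied filter, probe set, scaling, variance model, an added 16, block and arrays left out. Replicate letters did not pair arrays (correlations of deviations -0.025 to 0.049). Genes used to check the named line are not named.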

Additional observations from a re-analysis of the deposited data

How the results depend on the processing

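The 6 genes kept 0 ethanol calls in embryoid bodies under all alternatives run. Leaving out 1 array gave 0 to 2 calls in undifferentiated cells and 0 to 1 for the difference, with a lone array assumed to vary like the other groups. Genes with embryoid body arrays above numbered 6, but 3 with the 75th percentile filter and 4 without _x_at and _s_at sets, where the other genes were not tested. Signs turned for VIL1 in embryoid bodies with median centring (-0.13), for FABP1 (-0.061) and MUC15 (-0.10) there with cyclic loess, for VIL1 in undifferentiated cells with the mean of probe sets (0.025; -0.66 to 0.40 with 1 array left out), and for the difference of MUC15 (0.19) and HSD17B2 (0.14) with 16 added; with 1 array left out the differences ran from -0.93 to 0.27 for MUC15, -2.89 to 0.17 for HSD17B2 and -0.27 to 0.80 for VIL1. The cause was not tested. Over all genes, ethanol calls in embryoid bodies numbered 10, against 2 without a filter, 477 with the stricter filter, 1 with the mean of probe sets, 0 without _x_at and _s_at sets, 62 after quantile normalisation, 3880 after median centring (which put the median change at -0.25, against 0.02), 959 with a trended and robust variance, 56 with 16 added, 0 with a replicate block, 0 with only the groups compared, and 0 to 4 with 1 array left out. In undifferentiated cells 1 gene was called, against 2 without a filter, 0 with the stricter filter, 3 without _x_at and _s_at sets, 2 after median centring, 2 after cyclic loess, 0 with the trended variance, 16 added, the replicate block or only the groups compared, and 0 to 33 with 1 array left out. The difference gave 0, or 13 with the stricter filter, 31 with the trended variance and 0 to 10 with 1 array left out. The replicate block changed no call of the 6 genes. Signals under the array median limit every fold against undifferentiated cells.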
